A study of Mus musculus with 2 samples.

Results

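The unfolded protein response is the set of signals by which a cell adjusts the folding capacity of its endoplasmic reticulum (ER), the compartment where membrane and secreted proteins are made. Its 10 genes described here were chosen by symbol: Atf4, Atf6, Xbp1, Ern1, Ddit3, Calr, Canx, Pdia3, Pdia4 and Trib3. They are 10 of the 55536 mouse genes in the deposited gene tables. Their symbols are carried by 11 gene identifiers with 36 annotated transcripts, since Ddit3 has a second identifier with 1 transcript. As background, misfolded protein in the ER is sensed by 3 membrane proteins, encoded by Ern1 (IRE1alpha), Atf6 and Eif2ak3 (PERK). Their outputs are the transcription factors encoded by Xbp1, Atf6, Atf4 and Ddit3, and the targets include the chaperones and disulfide isomerases that fold proteins in the ER. Neurons make many membrane and secreted proteins, and this response has been studied widely in models of Alzheimer's disease.

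The 2 libraries were made from total RNA of adult female mice of the labelled strain 5xFAD/CAST, 8 to 10 months old. The tissue is labelled as a layer of hippocampus, and the label does not name the layer. The 5xFAD line is a transgenic model of Alzheimer's disease whose transgenes are driven by the neuronal Thy1 promoter, and CAST is an inbred strain founded from wild mice. Each library was started from 300 ng of RNA with ERCC spike-ins, and the protocol named is a directional kit. Both libraries belong to 1 group, with no mice without the transgene and no treatment, so no comparison between conditions was possible. The labels give separate biosample records and 1 shared donor record, so it is not settled whether the libraries came from separate animals. The SD over the 2 libraries is therefore the spread between these samples, which may be technical, and no p-value was computed.

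The gene tables held 27816800 expected counts in replicate 1 and 32316700 in replicate 2, where an expected count is the estimated number of reads of a gene. Levels are given in TPM (a share of the library's transcripts, scaled by length to a fixed total), so genes can be compared with each other. Markers of the labelled tissue were present: all 5 markers of hippocampal pyramidal and granule neurons were at 1 TPM or more in both libraries. Marker levels of several cell types differed between the libraries. Choroid plexus markers were lower in replicate 2 for 8 of 8 genes (median log2 ratio -1.56), and their summed TPM was 454 in the first library and 158 in the second. Most of each sum was Ttr, at 426.2 and 146.3 TPM. Oligodendrocyte markers were lower in replicate 2 for 4 of 4 genes (median log2 ratio -0.32), as were those of microglia for 4 of 4 (-0.16) and of astrocytes for 5 of 5 (-0.074). All 5 pan-neuronal markers were higher (0.12). In bulk tissue, fewer cells of a type and less RNA per cell cannot be told apart.

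The 10 genes spanned levels from under 1 TPM to about 200 TPM, and the lectin chaperones of the ER led them. Canx and Calr stood near 200 TPM each, Pdia3 followed at 84.0 TPM, and these 3 genes held 77.1% ± 0.209 (SD, n = 2) of the TPM of all 10. The transcription factors and sensors lay between 5.09 and 42.7 TPM, and Trib3 was at 0.495 TPM. A level of at least 1 TPM in both libraries was reached by 9 of the 10 genes, against 13251 of 22015 nuclear protein-coding genes (60.2%). In both libraries 7 of the 10 were above the median of those detected coding genes, which was 15.3 TPM ± 0.0566 (SD, n = 2). The median of the 10 genes was 29.8 TPM ± 0.774 (SD, n = 2). The summed level was 621.4 TPM in replicate 1 and 622.9 TPM in replicate 2.

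Ranked by mean TPM, the order was Canx, Calr, Pdia3, Atf4, Xbp1, Pdia4, Atf6, Ddit3, Ern1 and Trib3. The ranges of neighbouring genes over the 2 libraries overlapped for Canx and Calr alone. For the other 8 neighbouring pairs the lower library of the higher gene was above the higher library of the lower gene. Canx and Calr changed places between the replicates, and they also changed places between the 2 kinds of deposited table.

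**Figure D1:**
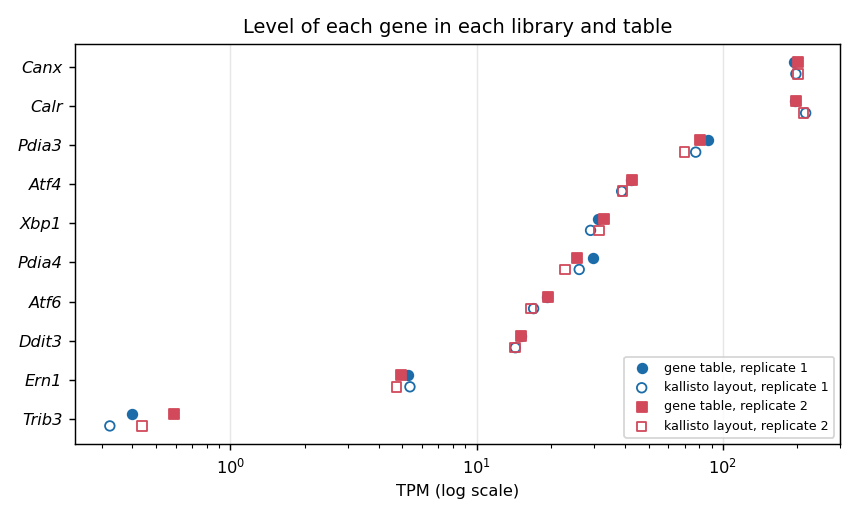
TPM of each of the 10 genes on a log axis, in replicate 1 (circles) and replicate 2 (squares), from the gene tables (filled) and from the kallisto-layout transcript tables summed by gene (open). Canx and Calr share the top near 200 TPM, and Trib3, with 15 and 12 expected counts, is below Ern1 in both libraries and both kinds of table.

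Of the sensors, Ern1 and Atf6 are members. Ern1 encodes IRE1alpha, a kinase and RNase of the ER membrane, on chr11:106394650-106487852 (minus strand, mm10). It measured 5.25 TPM in replicate 1 and 4.93 TPM in replicate 2, from 546 and 624 expected counts, with a mean of 5.09 TPM ± 0.226 (SD, n = 2). Ern1 was the second lowest of the 10 genes and ranked 10553 among 22015 nuclear coding genes.

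Atf6 encodes a membrane-anchored transcription factor that is released by cleavage in the Golgi, on chr1:170704674-170867771 (minus strand). It measured 19.23 and 19.47 TPM, from 2642 and 3043 expected counts, with a mean of 19.35 TPM ± 0.170 (SD, n = 2). Atf6 was 3.81-fold ± 0.203 (SD, n = 2) above Ern1, and the 2 libraries of each gene did not overlap. Eif2ak3, the PERK gene and not one of the 10, lay between them at 10.2 TPM ± 0.262 (SD, n = 2). Its level was 2.01-fold that of Ern1, and Atf6 was 1.89-fold above it. The paralog Atf6b was higher than Atf6, with an Atf6 to Atf6b ratio of 0.594 ± 0.00457 (SD, n = 2).

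Transcripts of the sensors differed in how firmly they could be assigned. Atf6-201, the coding transcript of 7246 nucleotides, carried 96.9% of Atf6 TPM in both kinds of table. For Ern1 the leading coding transcript, Ern1-201, took a mean of 73.9% of the gene's TPM in the RSEM-layout tables and 61.9% in the kallisto-layout tables. The noncoding Ern1-205 has 3298 of its 3354 bases inside the exons of Ern1-201. Its share was 0% in replicate 1 and 6.29% in replicate 2 in the RSEM-layout tables, and 9.60% and 18.2% in the kallisto-layout tables. Shares of the coding Ern1-204 were 16.4% and 11.4% by the first kind of table and 19.3% and 7.30% by the second, so the replicates differed by more than the tables' means.

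Xbp1 encodes the transcription factor that IRE1alpha activates by cutting a short segment out of the cytoplasmic mRNA. The gene lies on chr11:5520659-5525893 (plus strand). It measured 31.02 and 32.84 TPM, from 1022 and 1194 expected counts, with a mean of 31.9 TPM ± 1.29 (SD, n = 2). Replicate 2 was the higher library in both kinds of table.

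The segment is shown because it decides what these tables can say about Xbp1. A search of Xbp1-201 for a pair of IRE1-type cut sites with the same 4 letters after each cut, at most 40 bases apart, found 3 pairs in the coding sequence, of which 1 lengthens the reading frame when the segment is removed. That segment has 26 bases, at bases 815 to 840 of Xbp1-201, on chr11:5524279-5524304 (mm10, plus strand, exonic and coding). It is printed from the GENCODE M21 transcript, 5′ to 3′, with the segment in capitals and 2 flanking bases on each side in lower case:

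Xbp1 segment: cgCAGCACTCAGACTATGTGCACCTCTGca

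With the segment the main frame of Xbp1-201 has 267 codons, and without it 371. None of the 4 annotated Xbp1 transcripts holds the joined form, and the shortest annotated intron of the gene has 300 bases. The form cut by IRE1alpha therefore has no transcript of its own in this annotation and was not measured. Transcripts that hold the segment, Xbp1-201, Xbp1-203 and Xbp1-204, carried 91.4% ± 0.252 (SD, n = 2) of Xbp1 TPM, but the annotation gives reads of the cut form no transcript of their own, so this share says nothing of how much mRNA was cut.

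Among the Xbp1 transcripts, the coding Xbp1-201 led with a mean of 67.4% in the RSEM-layout tables and 66.6% in the kallisto-layout tables. Xbp1-204, coding and 897 bases long, followed with 16.6% and 17.4% in the first kind of table and 14.4% and 17.5% in the second. The retained-intron transcript Xbp1-202 took 8.62% and 10.5%. Xbp1-203, coding, measured 1.53 and 2.93 TPM, a mean share of 6.93%, and it was the higher in replicate 2 in the kallisto-layout tables as well.

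Atf4 encodes the transcription factor whose translation increases when eIF2alpha is phosphorylated, on chr15:80255184-80257541 (plus strand). It measured 42.38 and 42.97 TPM, from 1375 and 1589 expected counts, with a mean of 42.7 TPM ± 0.417 (SD, n = 2). Atf4 was the highest of the transcription factor genes, 1.34-fold ± 0.0408 (SD, n = 2) above Xbp1 and 2.83-fold ± 0.0277 (SD, n = 2) above Ddit3. Atf4-201 carried 91.3% of its TPM in the RSEM-layout tables and 93.1% in the kallisto-layout tables, and the rest fell on Atf4-203, a retained-intron transcript.

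Ddit3 encodes CHOP, a transcription factor downstream of ATF4 that is associated with cell death under prolonged stress, on chr10:127290774-127296288 (plus strand). It measured 15.08 TPM in both libraries, from 235 and 269 expected counts, so the SD over the libraries was 0 at the precision of the table. The deposited credibility bounds around the posterior mean, whose level the files do not state, were 12.9 and 16.7 TPM in replicate 1. Ddit3-201 carried 94.2% of the TPM in the RSEM-layout tables. The gene overlaps Mars on the opposite strand by 68 bases, and Mars was at 26.2 TPM ± 2.38 (SD, n = 2). Of the words of 31 bases in Ddit3 transcripts, 2.22% occur in Mars on the opposite strand. The library kit is directional, but whether strand was used in counting is not given in the sources used here.

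Leaders of these mRNAs were read because translation of Atf4 and Ddit3 is known to depend on upstream reading frames. The 594-base leader of Atf4-201 holds 3 upstream ATG codons. Their frames run from base 120 to 230, from 399 to 410 and from 498 to 677, and the last runs past the start of the main frame. The 186-base leader of Ddit3-201 holds 2 ATG codons in 1 frame, from base 56 or 65 to base 160. A second gene identifier with the symbol Ddit3 has 1 transcript, Ddit3-204, which is the upstream frame of 105 bases itself, with 34 codons and a stop. It was at 0 expected counts in both libraries, all of its bases lie inside Ddit3-201, and the upper credibility bound of its level was 29.7 TPM in replicate 1 and 34.3 TPM in replicate 2.

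Xbp1-201 holds 1 upstream ATG, with a frame from base 217 to 273. The leading coding transcripts of the other 7 genes hold none. Over 12807 detected coding genes with an annotated leader, 51.35% hold at least 1. These are features of the reference annotation, and neither translation nor protein was measured.

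Trib3 encodes a pseudokinase that is induced by ATF4 and CHOP, on chr2:152337422-152344032 (minus strand). It measured 0.40 TPM in replicate 1 and 0.59 TPM in replicate 2, from 15 and 12 expected counts, with a mean of 0.495 TPM ± 0.134 (SD, n = 2). By counts replicate 2 was the lower library and by TPM the higher. In replicate 2, 3.41 of the counts were assigned to the retained-intron transcript Trib3-203, only 504 bases long, at 0.38 TPM, whereas in replicate 1 it was listed at 0. It was below Ern1, the next gene in the order, in both libraries.

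The lectin chaperones and disulfide isomerases are the effectors among the 10 genes. Canx encodes calnexin, the membrane-bound lectin chaperone of newly made glycoproteins, on chr11:50293961-50325673 (minus strand). It measured 194.19 and 202.96 TPM, from 11000 and 12964 expected counts, with a mean of 198.6 TPM ± 6.20 (SD, n = 2). Calr encodes calreticulin, its soluble paralog, on chr8:84841850-84846934 (minus strand). It measured 197.03 and 197.47 TPM, from 7502 and 8680 expected counts, with a mean of 197.25 TPM ± 0.311 (SD, n = 2). The ratio of Calr to Canx was 1.01 in replicate 1 and 0.973 in replicate 2, so neither gene was consistently the higher.

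Pdia3 encodes ERp57, the disulfide isomerase that works with calnexin and calreticulin, on chr2:121413775-121438687 (plus strand). It measured 87.13 and 80.95 TPM, from 3808 and 4192 expected counts, with a mean of 84.04 TPM ± 4.37 (SD, n = 2). Pdia4 encodes ERp72, another disulfide isomerase of the ER, on chr6:47796141-47813430 (minus strand). It measured 29.65 and 25.64 TPM, from 1339 and 1321 expected counts, with a mean of 27.6 TPM ± 2.84 (SD, n = 2). Pdia3 was 3.05-fold ± 0.155 (SD, n = 2) above Pdia4, with no overlap between the libraries of the 2 genes.

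Calr, Canx and Pdia3 each have a short transcript with a share of its own that lies almost wholly inside the leading one. For Calr this is the retained-intron transcript Calr-204, with 856 of its 943 bases inside Calr-201. In the RSEM-layout tables Calr-204 measured 17.42 and 12.41 TPM, a mean share of 7.56% ± 1.81 (SD, n = 2). In the kallisto-layout tables it measured 73.1 and 67.3 TPM, a share of 32.6% ± 1.49 (SD, n = 2). The kallisto-layout values lie outside the credibility bounds of the RSEM-layout tables, which were 10.7 and 23.2 TPM in replicate 1.

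For Canx the short transcript is Canx-202, noncoding, with 674 of its 708 bases inside Canx-201. It took 25.4% and 27.0% of Canx TPM in the RSEM-layout tables, and 35.1% and 35.4% in the kallisto-layout tables. By expected counts its mean share was 5.57%, since a short transcript needs few reads for a high TPM. For Pdia3 it is Pdia3-203, of the nonsense-mediated decay class, with 721 of its 722 bases inside Pdia3-201. Its share was 21.3% in replicate 1 and 16.8% in replicate 2 in the RSEM-layout tables, and 19.5% and 12.2% in the kallisto-layout tables. Pdia4-201 carried 100% of Pdia4 TPM in both kinds of table.

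**Figure D2:**
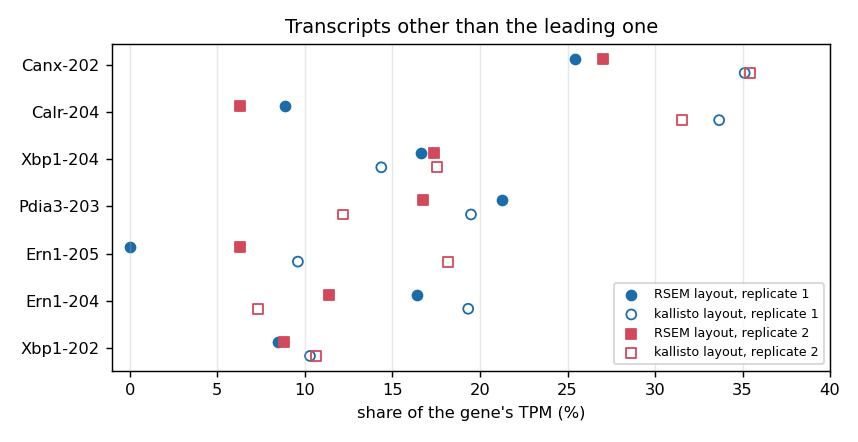
Share of its gene's TPM taken by each transcript, other than the leading one, that reached a mean of 10% in either kind of table, in replicate 1 (circles) and replicate 2 (squares), RSEM layout filled and kallisto layout open. Calr-204 is under 10% in the RSEM-layout tables and over 30% in the kallisto-layout tables, whereas Xbp1-204 overlaps between them. Trib3, with few reads, is not drawn.

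Counting coding transcripts alone separated Calr from Canx. In the RSEM-layout tables Calr then stood at 176.6 TPM ± 3.03 (SD, n = 2) and Canx at 145.5 TPM ± 2.81 (SD, n = 2). In the kallisto-layout tables Calr stood at 138.2 TPM ± 1.29 and Canx at 129.0 TPM ± 1.01 (SD, n = 2). With all transcripts, the kallisto-layout tables gave 215.1 TPM ± 2.76 for Calr and 199.85 TPM ± 2.43 for Canx (SD, n = 2). Calr was thus above Canx in these 3 readings, and in the gene tables the 2 genes overlapped.

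Over all 10 genes, protein-coding transcripts held 84.2% ± 0.308 (SD, n = 2) of the TPM in the RSEM-layout tables and 72.8% ± 0.692 in the kallisto-layout tables. Retained-intron transcripts held 4.71% and 13.7%. Noncoding processed transcripts held 8.56% and 11.6%, and the nonsense-mediated decay transcript of Pdia3 held 2.58% and 1.91%. Differences between the kinds of table were thus larger than the spread between the replicates for the first 3 classes. The median share of the leading transcript was 88.1% ± 2.33 (SD, n = 2).

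**Figure D3:**
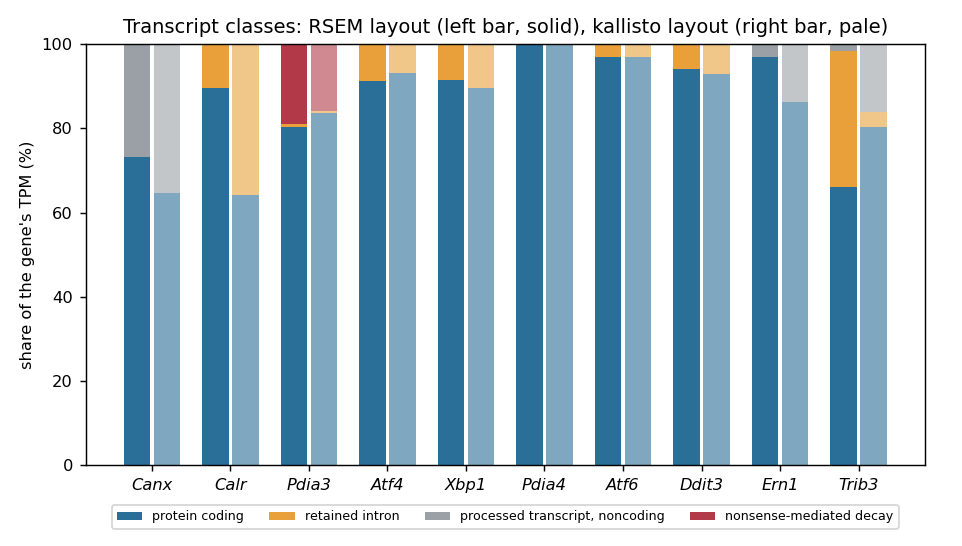
Share of each gene's TPM by annotated transcript class, as the mean of 2 libraries, in the RSEM-layout tables (left bar of each pair) and the kallisto-layout tables (right bar, pale). Canx and Calr have the largest noncoding or retained-intron parts among the well-counted genes, and all Pdia4 TPM is on a coding transcript.

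Ratios between the replicates were set beside those of all genes. The log2 ratio of replicate 2 to replicate 1, scaled by TMM (trimmed mean of M values) with a prior count of 2, was computed for all 18906 genes with a mean of at least 10 counts, and all 10 genes passed that filter. None of the 10 reached 1.5-fold in either direction, and 8.63% of all genes tested did. A mean of at least 100 counts was reached by 9 of the 10 genes, and 1.13% of all genes at that count passed 1.5-fold. With so few genes, a count of none does not set them apart from these shares. These 9 genes had a median absolute log2 ratio of 0.012, against 0.087 over 13095 genes at that count. The 2 sets were not matched for count beyond that minimum, so this difference cannot be read as a trait of the 9 genes. Of these 9 genes, 4 were higher in replicate 2 and 5 lower. Ratios this near 0 have no firm sign: among the 4 scalings tried, the sign differed for Calr, Pdia3, Atf4, Atf6, Ddit3 and Ern1, and the median log2 ratio of all genes was 0.069 with spike-in scaling and -0.0023 with TMM.

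Pdia4 had the largest ratio of the well-counted genes, a log2 ratio of -0.22, and it was lower in replicate 2 under each of the 4 scalings, with ratios from -0.24 to -0.15. Trib3 had a log2 ratio of -0.46 on 15 and 12 expected counts, and -0.069 by the kallisto-layout counts. Markers of choroid plexus, oligodendrocytes, microglia and astrocytes were also lower in replicate 2, as given above, and their part in the ratios of Pdia4 and Trib3 was not tested. Plasma cells, which secrete much protein, were represented by 5 markers, none of them at 1 TPM in both libraries.

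The promoters of the effectors were read for the ER stress response element (ERSE), the motif bound by ATF6 together with NF-Y. Sequences were RefSeq's, on GRCm38.p6, from 250 bases before to 50 after each start site, and 9 of the 10 genes matched, all but Atf6. ERSE was searched on both strands as CCAAT, then 9 free bases, then CCACG. It was found in 2 of these 9 genes, Calr and Canx, and in 37 of all 27025 genes with a promoter. By promoter it was in 0.119% of all 32851. Of the 72 other genes of the pathway with a promoter, 8 held it: Hspa5, Hsp90b1, Pdia6, Creld2, Derl3, Dnajc3, Ero1b and Syvn1. The search set the fixed letters, so only the 9 bases between them can differ. The sites of the 2 members and of 2 of these genes are printed 5′ to 3′. They are given on the strand where the motif reads, with the motif's fixed letters in capitals:

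Calr, chr8:84847075-84847093 (plus strand): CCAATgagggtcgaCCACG

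Canx, chr11:50325800-50325818 (minus strand): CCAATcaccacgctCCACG

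Hspa5, chr2:34772025-34772043 (plus strand): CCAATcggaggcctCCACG

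Pdia6, chr12:17266491-17266509 (plus strand): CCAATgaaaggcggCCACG

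The site of Calr lies opposite to the direction of the gene and that of Canx along it. The motif ERSE-II, searched on both strands as ATTGG, 1 free base and CCACG, was in none of the 9 genes and in 0.0365% of all promoters. Among the other pathway genes it was in Herpud1 and Dnajb11. The C/EBP-ATF composite element, searched on both strands as TTGCATCA, was also in none of the 9. It was in 0.895% of all promoters, among them those of Atf3, Chac1, Herpud1, Nupr1, Slc7a11 and Vldlr. These matches describe letters in the reference sequence, not the alleles of these mice, and no binding was measured.

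The other genes of the pathway, 90 in 8 lists, had a median of 16.5 TPM ± 0.110 (SD, n = 2), and 84 of them were at 1 TPM or more in both libraries. Past 1.5-fold between replicates were 3 of the 88 with a ratio, against the 8.63% of all genes. At a mean of at least 100 counts it was none of 79, against 1.13% of all genes. The 3 were Cth (log2 ratio -0.81), Pdia5 (-0.59) and Creb3l3 (1.00), each under 100 counts in both libraries.

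Among the sensors and their processing enzymes, 7 of 8 genes were detected at 1 TPM. Hspa5, which encodes BiP, the chaperone that binds the sensors, was at 96.8 TPM ± 1.12 (SD, n = 2), and Rtcb, the ligase that rejoins cut Xbp1 mRNA, at 53.9 TPM ± 0.0636. Ern2, the paralog of Ern1 known from gut epithelium, was the lowest at 0.37 TPM. Mbtps2, a protease that cleaves ATF6, had the largest ratio of the list at 100 counts or more, 0.19 on the log2 scale.

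All 7 genes of the list of eIF2alpha, its kinases and its phosphatase subunits were detected, with a median of 16.4 TPM. That median is the level of Dnajc3, a co-chaperone gene that this list also holds. The kinase gene Eif2ak3 was listed with the sensors instead. Eif2s1, the gene of eIF2alpha itself, was at 20.1 TPM and Eif2ak1, the HRI kinase, at 17.9 TPM. Ppp1r15a, which encodes the stress-inducible phosphatase subunit GADD34, was at 9.62 TPM ± 1.70 (SD, n = 2). The lowest was Eif2ak2 (PKR) at 5.01 TPM, which also had the largest log2 ratio of the list, -0.25.

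All 18 targets and partners of ATF4 and CHOP were detected at 1 TPM. Their median was 15.3 TPM. The highest were genes of amino acid supply: Slc3a2, a transporter subunit, at 76.9 TPM and Psat1, of serine synthesis, at 57.0 TPM. Asns, asparagine synthetase, was at 38.3 TPM ± 4.48 (SD, n = 2). The lowest was Cth, an enzyme of cysteine synthesis, at 2.50 TPM ± 0.742 (SD, n = 2). Chac1, an enzyme of glutathione breakdown, was at 2.97 TPM ± 0.255 (SD, n = 2), and the transcription factor gene Atf3 at 2.62 and 3.38 TPM in the 2 libraries. The proapoptotic Bbc3 was at 5.62 TPM with a log2 ratio of 0.33.

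Of 13 ER chaperones and co-chaperones, 12 were detected. Hsp90b1, which encodes GRP94, was the highest at 137.6 TPM ± 0.700 (SD, n = 2), and Hspa5 was next. The ratio of Hspa5 to Calr was 0.491 ± 0.00489 (SD, n = 2). Dnajb9, a co-chaperone that XBP1 induces, was at 16.5 TPM ± 0.594. Creld2 was at 8.02 TPM, Cdnf at 0.575 TPM, and Hspa13 had the largest log2 ratio at 100 counts, 0.27.

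In the glycoprotein folding cycle, where Calr and Canx act, 7 of 8 other genes were detected. Ganab and Prkcsh, the subunits of glucosidase II, were at 52.4 and 43.8 TPM, below Canx and Calr. Clgn and Calr3, the paralogs of Canx and Calr known from testis, were at 3.70 and 0.535 TPM. Mogs, glucosidase I, had a log2 ratio of 0.38.

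Beside Pdia3 and Pdia4, 14 of 15 other genes of the disulfide isomerase family and ER oxidation were detected. Tmx2 was at 101.1 TPM and Erp29 at 71.1 TPM, so Tmx2 was above Pdia3. Pdia5 and Pdia2 were the lowest at 1.86 and 0.21 TPM, and the peroxiredoxin gene Prdx4 had a log2 ratio of -0.30.

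All 16 genes of ER-associated degradation were detected, with the highest list median, 26.8 TPM ± 0.824 (SD, n = 2). Vcp, the ATPase that extracts proteins from the ER, was at 80.7 TPM and Sel1l, a ligase adaptor, at 66.3 TPM. Herpud1 was at 22.9 TPM ± 1.39. Derl2 was at 11.4 TPM and Derl3 at 1.15 TPM. Vcp also had the largest log2 ratio of the list at 100 counts, 0.12.

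Of 7 relatives of Trib3 and of the OASIS family of membrane-bound factors, 5 were detected, with the lowest list median, 4.59 TPM. Creb3 was at 29.0 TPM and Trib2 at 11.9 TPM, so Trib2 was above Trib3 in both libraries. Creb3l3 and Creb3l4 were at 0.285 and 0.185 TPM.

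**Figure D4:**
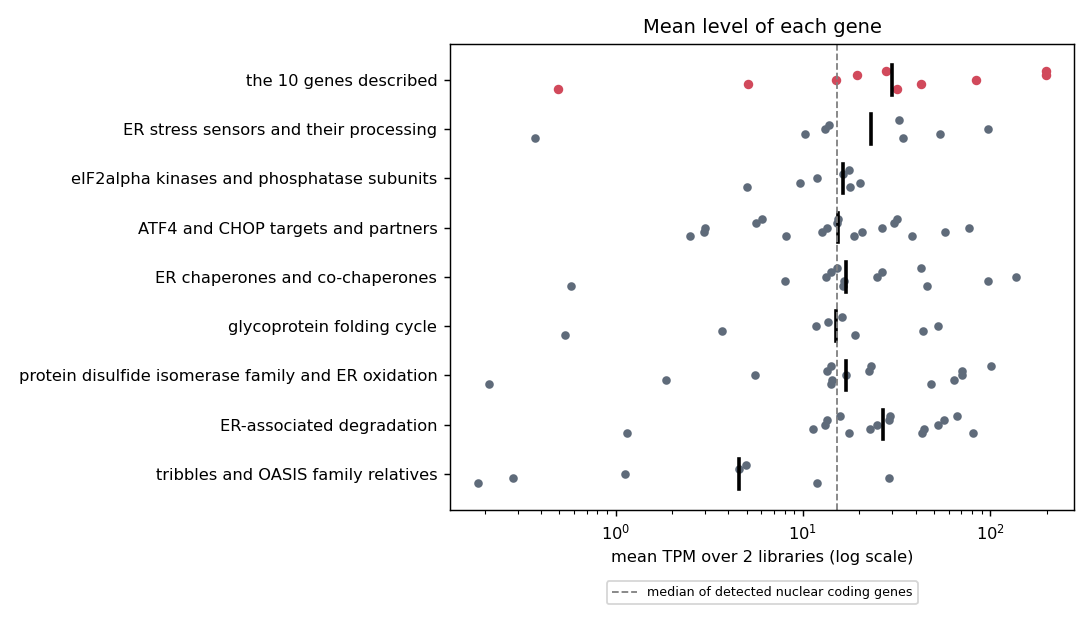
Mean TPM over 2 libraries of the 10 genes (red) and of the genes of each pathway list (grey) on a log axis, spread vertically within a row for visibility only, with the median of each row as a black bar and the median of detected nuclear coding genes, 15.3 TPM, as a dashed line. The 10 genes have a median of 29.8 TPM, and Canx and Calr are above every gene of the 8 lists.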

How the data were processed

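Total RNA of 2 libraries of 1 group was quantified by the authors on mm10 with GENCODE M21, per the readme deposited with each sample; aligner, programs and versions were not stated there. Deposited per library were a gene table and a transcript table in the column layout of RSEM, with expected counts and TPM, and a transcript table in the column layout of kallisto, with estimated counts and TPM. Scores deposited beside them are the posterior SD of the count and credibility bounds of TPM, whose level is not stated. An isoform percent column is also deposited; shares here were recomputed from TPM over all transcripts with the symbol.

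Mean and SD over 2 libraries were computed in Python 3.11.15 (pandas 2.3.3, numpy 2.4.6). Expected counts were rounded, and the log2 ratio of replicate 2 to replicate 1 was computed over all genes with edgeR 4.0.16 in R 4.3.3 (TMM, prior count 2, mean count of at least 10) and checked on simulated counts. With 1 group there was no test, no p-value and no count model across conditions. Depth was 27683000 and 32169900 expected counts on mouse genes. The 10 members and the pathway lists were chosen with earlier results of these data known. The searches of leaders, promoters, shared words of 31 bases and the Xbp1 segment were added after the files were seen, from textbook knowledge of these genes, and every motif searched is reported. Named from each pathway list were the 2 highest and 2 lowest genes by TPM and the gene with the largest absolute ratio at 100 counts or more, plus 9 genes named by symbol: Hspa5, Hsp90b1, Eif2ak3, Ppp1r15a, Herpud1, Dnajb9, Atf3, Chac1 and Asns. Likeness of pattern to other genes was not computed over 2 libraries. Alternatives were other scalings (DESeq2 1.42.0 size factors, library size, ERCC spike-ins), count filters, folds and the other deposited table.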

Additional observations from a re-analysis of the deposited data

How the results depend on the processing

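Leaving out either library kept 9 of 10 genes detected (9 to 9), a median level of 29.24 to 30.3 TPM, and a median leading share of 86.5% to 89.8%. With 2 libraries such medians always lie within the SD, so these ranges do not show stability. The median level was 27.4 TPM in the kallisto-layout tables and 66.6 TPM when TPM was rescaled to nuclear protein-coding genes. The median leading share was 81.4% in the kallisto-layout tables and 93.3% by expected counts. With a lower fold threshold than 1.5, 1 of the 10 genes passed, Trib3, and 19.9% of all genes did. For these 4 results, 11 other settings gave values within the replicate spread or within 1.5 times the count. For single genes and transcripts, 50 values stayed within a margin and 20 moved beyond it. That margin was the replicate SD for levels and shares, but a counting error for log2 ratios, so the tally mixes unlike margins. The log2 ratios moved only for Canx, Calr and Pdia3, under spike-in scaling. By the kallisto-layout tables the levels of Canx, Ern1 and Trib3 stayed within the SD, and those of the other members moved beyond it. Among 8397 coding genes with at least 10 TPM, the kallisto-layout TPM was a median of 0.949 of the gene table's, with quartiles of 0.890 and 1.04. No paired analysis was possible because there is 1 group. Depth limits Trib3, with 15 and 12 expected counts. Why the kinds of table differ for transcripts inside a longer one was not tested.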
